A study of Mus musculus with 20 samples.

Results

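Aggrecan (Acan), versican (Vcan), the link proteins Hapln1 and Hapln3, cartilage oligomeric matrix protein (Comp), lubricin (Prg4) and the matrilins Matn1, Matn2, Matn3 and Matn4 were followed across the intervertebral disc of old mice. They were taken by gene symbol, not by level, and all 10 are among the 51789 genes of the deposited table. RNA came from BL6 mice, from the gelatinous disc core, the nucleus pulposus (NP), and from the layered fibrous ring that encloses it, the annulus fibrosus (AF). Mice were injected intraperitoneally every week for 6 months from the age of 18 months, with DMSO alone (vehicle) or with MDL-800 in DMSO, and all tissue was taken at 24 months. MDL-800 is a small molecule, and the series title ties the study to activation of SIRT6, a chromatin deacylase. Each tissue was profiled in 5 vehicle and 5 MDL-800 libraries, which makes 4 groups. All 4 groups were old and all received DMSO, so neither young nor uninjected disc was compared here. Library numbers are those of the sample titles or names.

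Aggrecan is a large proteoglycan whose chondroitin and keratan sulfate chains hold water, which lets disc and cartilage resist compression. Its N-terminal globular domain binds hyaluronan, and a link protein binds both partners and locks the aggregate. Versican is a related hyaluronan-binding proteoglycan of more pliable and of developing tissue. Matrilins and COMP are adaptor proteins that connect proteoglycans and collagen fibrils, and lubricin is a mucin-like glycoprotein that lubricates sliding surfaces.

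In coordinates of the mouse build GRCm38 (GENCODE M21), Acan lies on chromosome 7 from 79053483 to 79115099 on the plus strand. Hapln3 lies on the minus strand from 79115102 to 79131018, so the genes of the core protein and of this link protein end 3 bases apart, tail to tail. Hapln1 and Vcan form a like pair on chromosome 13. Hapln1 runs from 89539796 to 89611652 on the plus strand and Vcan from 89655312 to 89742509 on the minus strand, with a gap of 43660 bases. Comp is on chromosome 8 (70373558 to 70382066, plus strand) and Prg4 on chromosome 1 (150449412 to 150466165, minus strand). Matn1 is on chromosome 4 (130944385 to 130955475, plus strand) and Matn2 on chromosome 15 (34306677 to 34436273, plus strand). Matn3 is on chromosome 12 (8947929 to 8972028, plus strand) and Matn4 on chromosome 2 (164389393 to 164405160, minus strand). All 10 are protein-coding genes, and the values below count whole genes, without separating exons or isoforms.

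The 250 bases before the RefSeq start site are shown for 4 genes with unlike results between the disc tissues (RefSeq, GRCm38.p6). Acan was higher in NP, Vcan was lower in NP, and Hapln1 did not pass the test described below. Matn3 was also lower in NP, as a description only, since it reached the level needed for testing through AF alone. Each is written 5′ to 3′ on the strand of its gene, and capitals mark every match to the GC box GGGCGG on either strand (CCGCCC where the match is on the opposite strand).
Acan (chr7:79052976-79053225, plus strand): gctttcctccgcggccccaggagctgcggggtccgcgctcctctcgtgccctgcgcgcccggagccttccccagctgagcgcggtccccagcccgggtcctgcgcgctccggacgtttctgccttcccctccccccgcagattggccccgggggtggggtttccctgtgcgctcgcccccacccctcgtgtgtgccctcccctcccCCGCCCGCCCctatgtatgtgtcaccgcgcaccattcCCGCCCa
Vcan (chr13:89742513-89742762, minus strand): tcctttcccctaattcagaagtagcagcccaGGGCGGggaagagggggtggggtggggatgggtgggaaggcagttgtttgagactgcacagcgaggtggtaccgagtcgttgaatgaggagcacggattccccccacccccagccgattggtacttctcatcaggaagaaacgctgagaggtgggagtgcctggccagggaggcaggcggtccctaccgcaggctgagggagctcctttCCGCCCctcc
Hapln1 (chr13:89540386-89540635, plus strand): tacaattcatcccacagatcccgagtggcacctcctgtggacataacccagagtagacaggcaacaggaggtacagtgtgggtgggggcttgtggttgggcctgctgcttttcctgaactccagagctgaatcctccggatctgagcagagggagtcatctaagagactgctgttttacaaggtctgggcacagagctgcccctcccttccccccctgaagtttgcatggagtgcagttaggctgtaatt
Matn3 (chr12:8947679-8947928, plus strand): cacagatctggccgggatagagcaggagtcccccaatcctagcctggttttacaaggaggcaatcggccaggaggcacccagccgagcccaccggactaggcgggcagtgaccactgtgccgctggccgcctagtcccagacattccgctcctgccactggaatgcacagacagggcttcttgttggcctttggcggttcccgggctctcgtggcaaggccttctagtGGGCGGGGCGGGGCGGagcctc
The Acan window held 3 such matches, of which 2 overlap, the Vcan window held 2, the Matn3 window held 3 that overlap in a chain, and the Hapln1 window held none. GGGCGG occurs in 32.74% of the 32851 promoter windows of the same length. The SOX core motifs ACAAAG (16.46% of windows) and ACAATG (10.69%), and the E-box CACGTG (6.021%), were found in none of the 8 windows that the table holds for 7 of the 10 genes. The TATA box string TATAAA, present in 12.37% of windows, was searched on both strands and found in the Hapln3 window only. That match lay on the strand of the gene, 239 to 234 bases before the start site. A match is a string of letters and not a shown binding site. The RefSeq start sites of Acan, Hapln1 and Vcan differ from the GENCODE gene bounds given above.

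The values are FPKM (fragments per kilobase of transcript and megafragments, M), divided here by 1 factor for each library, and are called scaled FPKM. Estimated depth lay between 12.9 and 22.0 M. Tissue identity followed the labels: T, the notochordal transcription factor of NP cells, was between 1198 and 2336 scaled FPKM in NP and between 113 and 627 in AF, and Tnmd, a tendon and ligament marker of AF, was between 0 and 2.98 in NP and between 20.9 and 94.5 in AF. Of 9 NP markers, 7 were higher in NP vehicle than in AF vehicle and 1 was lower, and of 9 AF markers, 8 were lower. Noto, another notochordal marker, was at or below 0.155 in every library, and the AF marker Fmod did not separate the tissues (721 to 1515 in NP and 328 to 1013 in AF). AF vehicle library 9 and AF MDL-800 library 25 had the highest NP marker levels among AF libraries (6.05 and 5.95 as a mean of log2 values, against 4.49 to 5.51 in the other AF libraries). T was at 113 scaled FPKM or more in every AF library. The part of NP cells in AF levels, such as that of Acan, was not tested. Every tested marker of skeletal muscle (6), red blood cells (5), neutrophils (5), bone (6), macrophages (5), endothelium (5) and fat (4) was higher in AF than in NP in both treatment groups. Over all genes tested, 33.9% in vehicle and 37.2% under MDL-800 were higher in AF. The endothelial markers summed to 0.754 to 5.55 scaled FPKM in NP and 37.9 to 88.3 in AF. Markers this low in NP can pass the filter described below through AF alone, which favours such a call. The part of these cells in the tissue differences below was not tested. The labels do not say whether a library came from 1 mouse or from pooled discs, nor whether NP and AF came from the same mice, so p-values measure the spread between these libraries. In such bulk tissue, fewer cells of a type and less RNA per cell cannot be told apart.

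**Figure D1:**
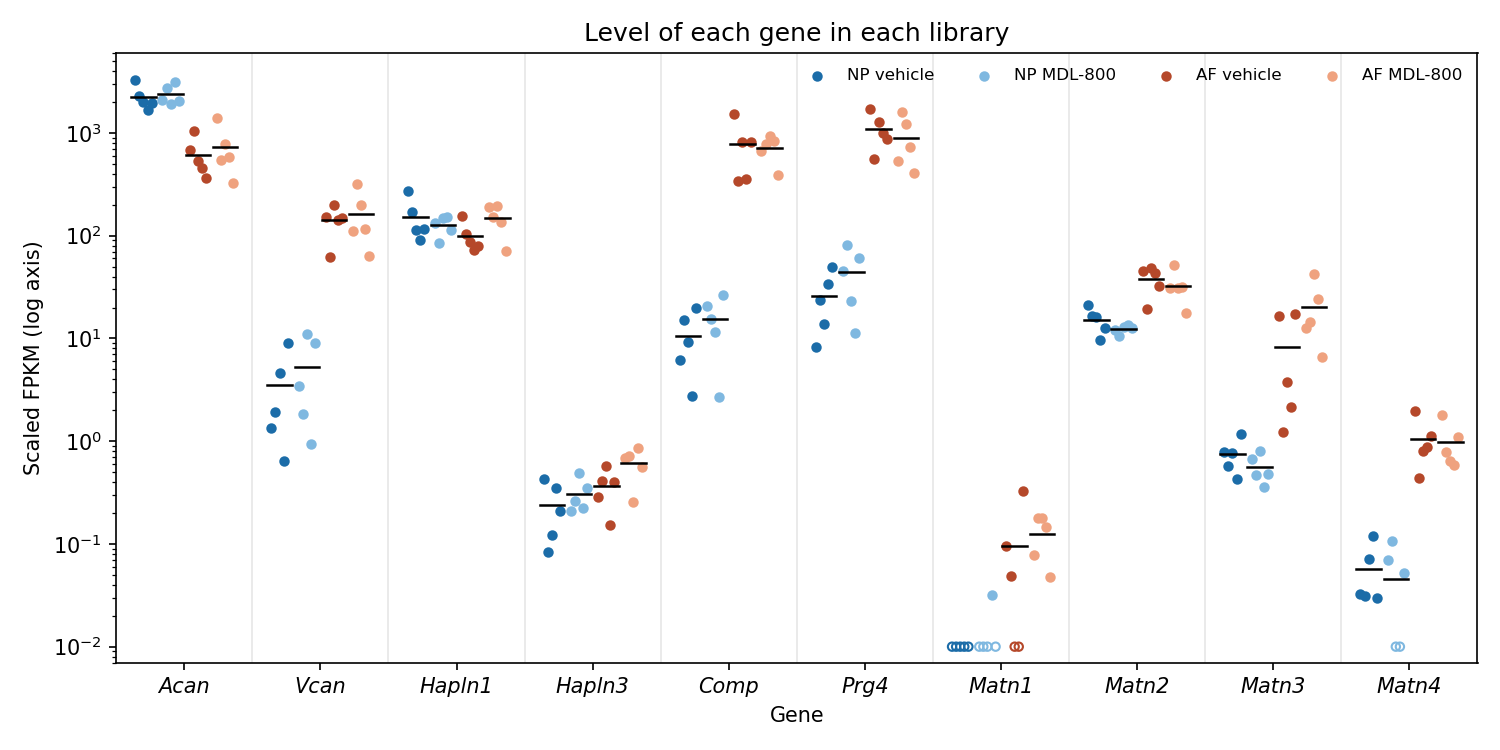
Scaled FPKM (log axis) of each of the 10 genes in each of the 20 libraries, with a bar at the mean of each group and open circles at the bottom for values below 0.01. Acan was highest in NP, Hapln1 was similar in range in all groups, and Comp, Prg4 and Vcan did not overlap between the tissues.

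The order of the 10 genes differed between the tissues. In NP vehicle, Acan came first at 2246 ± 630 scaled FPKM (SD, n = 5), followed by Hapln1 at 154 ± 74.2, and neither range overlapped that of the next gene. Below them Prg4 (25.99), Matn2 (15.2), Comp (10.7) and Vcan (3.52) had ranges that overlapped from neighbour to neighbour, as did Matn3 (0.742), Hapln3 (0.238) and Matn4 (0.0566), and Matn1 was listed at 0. In AF vehicle, Prg4 (1081), Comp (773) and Acan (617) led with overlapping ranges. Vcan (141) and Hapln1 (99.7) overlapped each other and lay apart from the leading genes and from Matn2 (38.0), and Matn3 (8.22), Matn4 (1.04), Hapln3 (0.363) and Matn1 (0.0948) followed.

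Acan made up 90.4% to 92.7% of the summed FPKM of the 10 genes in NP vehicle and 90.2% to 94.6% in NP MDL-800. In AF its share was 15.7% to 48.6% in vehicle and 15.9% to 47.6% under MDL-800. The highest AF shares belonged to libraries 9 and 25, the AF libraries with the most NP marker RNA. Prg4 took 26.4% to 48.0% and Comp 16.2% to 35.7% of the sum in AF vehicle, against at most 2.30% and 0.919% in NP vehicle. These shares compare FPKM, which are per length of transcript, and describe RNA and not protein.

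**Figure D2:**
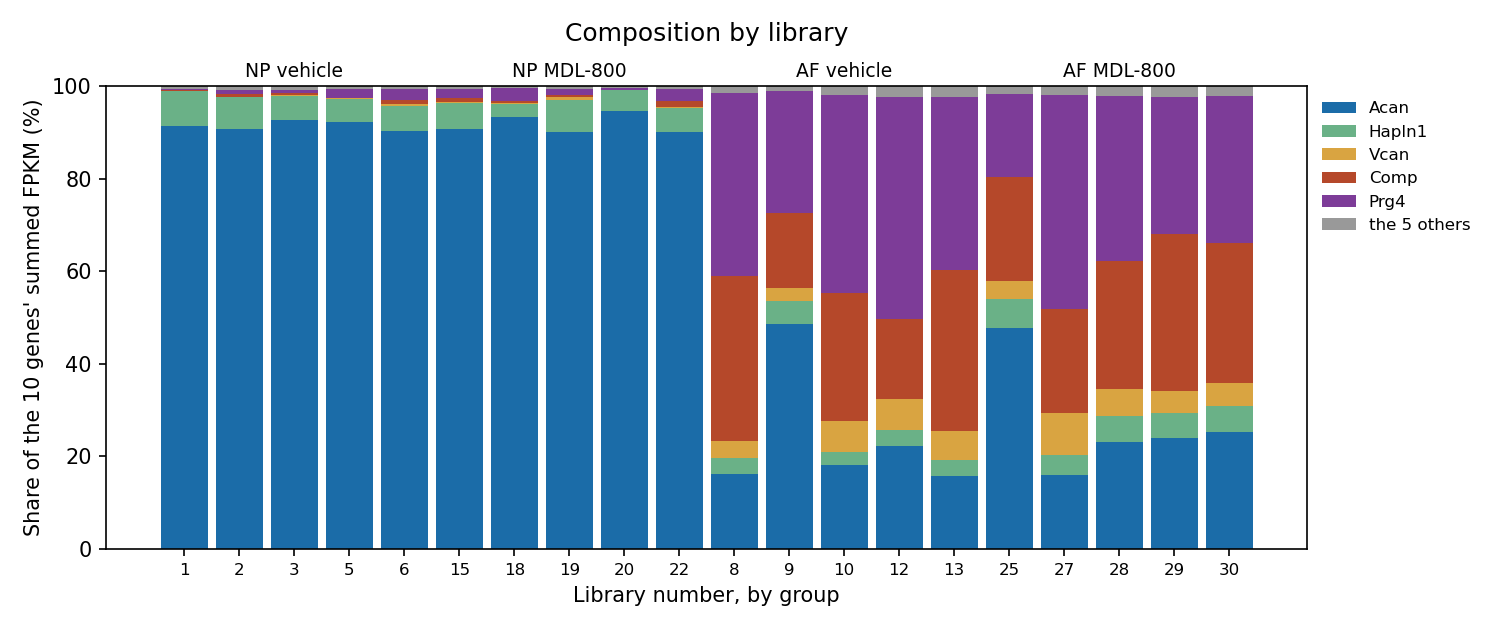
Share of the summed scaled FPKM of the 10 genes (percent, stacked) in each of the 20 libraries, in the order of groups and library numbers. Acan takes at least 90.2% in each NP library and at most 48.6% in each AF library, where Prg4 and Comp take most of the rest.

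The first comparison asked how the tissues differed in vehicle-treated mice. Differences were tested with limma on log2(scaled FPKM + 1), with Benjamini-Hochberg adjustment over the 16383 genes that reached 1 FPKM in at least 5 libraries, and a gene is called at an adjusted p under 0.05. Among all genes tested, 21.8% were called higher in NP and 33.9% were called lower. Of the 10 genes 7 were tested: 1 (Acan) was called higher and 5 (Vcan, Comp, Prg4, Matn2 and Matn3) were called lower. The libraries of NP and AF did not overlap for 5 of the 7 (all of the called genes but Matn2), against 41% of all genes tested. Matn3 reached 1 FPKM in 10 AF libraries and 1 NP library and so passed the filter through AF alone, which favours a lower call in NP. It is among the 5 called lower and the 5 without overlap, and it is no support for either count. Apart from Matn3, the tested genes without overlap were Acan, Vcan, Comp and Prg4. Hapln3, Matn1 and Matn4 did not pass. Of the 6 genes that would have passed on the libraries of either tissue alone, 1 was called higher and 4 lower, beside 23.6% higher and 26.9% lower over the 13040 such genes. In this comparison log2 differences are NP minus AF, the error after ± is the SE for a log2 difference and the SD for a level, and the pseudocount of 1 understates those of low genes.

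Acan, the core protein of the aggregate, measured 3309, 2269, 2008, 1682 and 1964 scaled FPKM in the NP vehicle group (libraries 1, 2, 3, 5 and 6). The AF vehicle values were 686, 1034, 537, 460 and 368 (libraries 8, 9, 10, 12 and 13). The lowest NP library lay above the highest AF library, which was library 9. The difference was 1.92 ± 0.29 (SE) on the log2 scale (limma, adjusted p = 0.000241), a ratio of means of 3.64. Without AF library 9 it was 2.13 (adjusted p = 7.57e-05). Among all genes of a library Acan ranked between 10 and 21 by FPKM in NP vehicle and between 62 and 193 in AF vehicle.

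Vcan, the second hyaluronan-binding proteoglycan, went the other way. It measured 1.33, 1.93, 4.63, 0.643 and 9.08 scaled FPKM in NP vehicle and 151, 62.4, 199, 142 and 150 in AF vehicle, with libraries in the order given for Acan. The groups did not overlap, the NP libraries spanned a 14.1-fold range, and the lowest AF library was again library 9. The log2 difference was -5.19 ± 0.47 (limma, adjusted p = 1.37e-05), and the mean in AF was 39.96 times that in NP. Vcan lay on either side of 1 FPKM in NP, so the fold depends on the pseudocount: the log2 difference was -5.73 with 0.1 and -4.09 with 5. The RNA ratio of Acan to Vcan was between 216 and 2615 in NP vehicle and between 2.45 and 16.6 in AF vehicle.

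Hapln1, the cartilage link protein, measured 275, 172, 114, 90.6 and 116 scaled FPKM in NP vehicle. It measured 156, 103, 87.6, 71.9 and 79.5 in AF vehicle. The ranges overlapped, with NP library 1 standing highest. The log2 difference was 0.56 (95% interval -0.11 to 1.22, limma, adjusted p = 0.141) and was not called. The column headers share numbers between NP and AF vehicle libraries, and the sources do not say what they mark. With these numbers as a block in limma, Hapln1 was called higher in NP (adjusted p = 0.00514). RNA of the link protein stood in another proportion to RNA of aggrecan in each tissue: Acan over Hapln1 was 12.0 to 18.6 in NP vehicle and 4.38 to 10.0 in AF vehicle.

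Hapln3, a link protein of broader distribution, stayed below 1 FPKM in all 20 libraries. Its values were 0.430, 0.0828, 0.122, 0.346 and 0.208 in NP vehicle and 0.284, 0.407, 0.574, 0.153 and 0.397 in AF vehicle. The groups overlapped, and an exact two-sided permutation test gave p = 0.2381 (adjusted p = 0.408 over the 12 such tests on genes outside the filter, where 0.0079 is the smallest p possible). Its neighbour Acan, which ends 3 bases away, was at 368 scaled FPKM or more in each of the same libraries.

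The other genes of the same families, the lecticans Ncan and Bcan and the link proteins Hapln2 and Hapln4, which are known from brain, were also looked up: 0 of 4 passed the filter. The highest value among them was 1.21 scaled FPKM, for Bcan in an AF MDL-800 library. Acan, Vcan and Hapln1 were therefore the 3 genes of these families above 1 FPKM in most libraries of at least 1 tissue.

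Comp, a thrombospondin family protein that binds collagens and matrilins, measured 6.20, 15.2, 9.28, 2.76 and 20.0 scaled FPKM in NP vehicle. In AF vehicle it measured 1526, 344, 822, 358 and 815. No NP library came near the lowest AF library. The log2 difference was -6.07 ± 0.52 (limma, adjusted p = 1e-05), the largest in size among the 7 genes tested, and the AF mean was 72.4 times the NP mean. The 4 related thrombospondins of the list, Thbs1, Thbs2, Thbs3 and Thbs4, were all called lower in NP. Over all genes that would have passed on either tissue alone, 26.9% were lower. The log2 differences were -5.12 ± 0.44 (limma, adjusted p = 1e-05) for Thbs4, -5.22 ± 0.45 for Thbs1, -3.29 ± 0.46 for Thbs2 and -1.50 ± 0.27 for Thbs3.

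Prg4, which encodes lubricin of joint and tendon surfaces, measured 8.17, 23.9, 13.9, 34.0 and 50.0 scaled FPKM in NP vehicle. In AF vehicle it measured 1692, 560, 1280, 996 and 878, and it was the most abundant of the 10 genes in 4 of these 5 libraries, with Acan ahead of it in library 9. The log2 difference was -5.48 ± 0.45 (limma, adjusted p = 8.29e-06), without overlap, and the AF mean was 41.6 times the NP mean. Of 6 markers of synovium or the superficial zone of cartilage, 5 were also lower in NP and 1 was higher, beside 33.9% lower over all genes tested. Of the lower ones, Gdf5, Htra4 and Sema3e passed the filter through AF alone, which favours a lower call in NP. Gdf5 lay between 0.0215 and 1.23 scaled FPKM in NP vehicle and between 4.67 and 18.0 in AF vehicle. The part of synovial or superficial zone cells in the Prg4 level was not tested. Prg4 overlaps Tpr on the opposite strand, and whether reads were assigned by strand is not stated. Tpr was between 27.0 and 44.8 scaled FPKM over all groups. Genes on the opposite strand that overlap Vcan, Hapln1, Matn2 or Matn4 were at 1.27 or less.

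Matn2, a matrilin found in many connective tissues, measured 21.2, 16.5, 16.2, 9.74 and 12.5 scaled FPKM in NP vehicle. Its AF vehicle values were 45.8, 19.5, 48.5, 43.7 and 32.6. The groups overlapped through NP library 1 and AF library 9. The log2 difference was -1.24 ± 0.26 (limma, adjusted p = 0.00226), a smaller tissue difference than for Vcan, Comp and Prg4 in size.

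Matn3, a matrilin best known from growth plate and articular cartilage, was low in NP vehicle at 0.785, 0.569, 0.762, 0.426 and 1.17 scaled FPKM. In AF vehicle it measured 16.6, 1.23, 3.74, 2.17 and 17.3, so libraries 8 and 13 stood well above libraries 9, 10 and 12, and the lowest AF value was close to the highest NP value. As a description, for the same reason of the filter, the log2 difference was -1.89 ± 0.56 (limma, adjusted p = 0.0138), and -0.98 with a pseudocount of 5 and -2.66 with 0.1. Its adjusted p rose to 0.0498 with quantile normalization.

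Matn4 measured 0.0323, 0.0311, 0.0711, 0.119 and 0.0297 scaled FPKM in NP vehicle and 1.97, 0.436, 0.804, 0.879 and 1.12 in AF vehicle. The groups did not overlap (exact two-sided permutation test, p = 0.0079, the smallest possible, adjusted p = 0.0317 over 12 tests), with a ratio of means of 18.4. Matn1, the matrilin of hyaline cartilage, was listed at 0 throughout the NP vehicle group and, in AF vehicle, in libraries 10 and 12. Its values in libraries 8, 9 and 13 were 0.0945, 0.0484 and 0.331, where 1 fragment is worth between 0.0248 and 0.0430 FPKM by the estimated depth. The vehicle groups overlapped for Matn1 (exact permutation p = 0.1667, adjusted p = 0.333). Within the matrilins, Matn2 thus made up 91.3% to 96.5% of the summed FPKM in NP vehicle and 63.5% to 93.5% in AF vehicle.

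**Figure D3:**
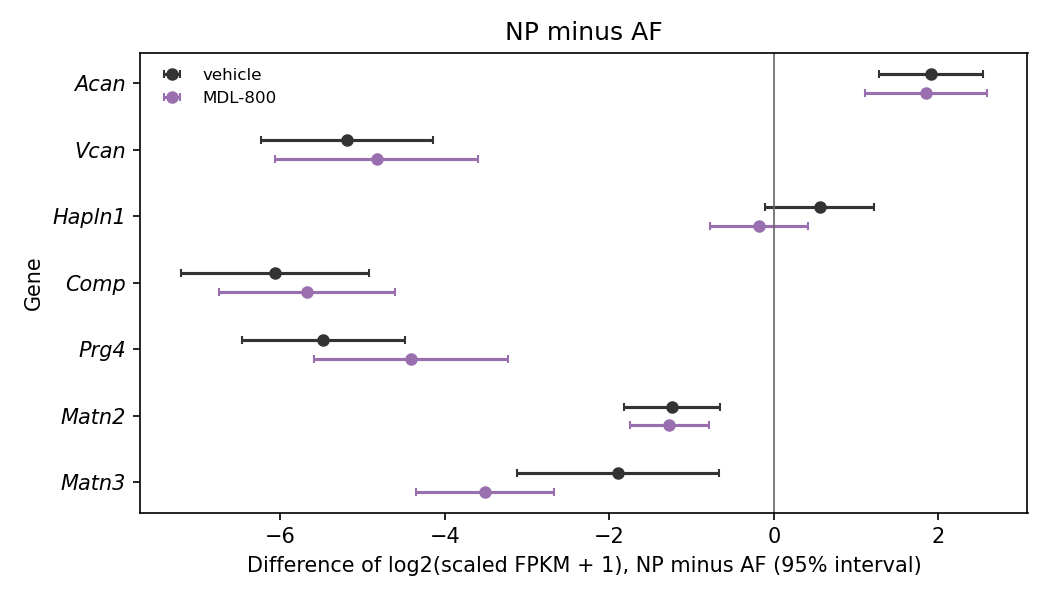
Difference of log2(scaled FPKM + 1) between NP and AF for the 7 genes tested (points, with 95% intervals), in vehicle (dark) and MDL-800 (purple) mice. Acan lies above 0, Hapln1 has an interval that spans 0, and the other 5 lie below 0 in both treatment groups.

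The same comparison in MDL-800 mice used other libraries of both tissues. Among all genes tested, 25.6% were called higher in NP and 37.2% lower, and again 1 of the 7 tested genes was called higher and 5 were called lower. The tissues did not overlap for 6 of the 7, against 49.1% of all genes tested. Matn3, which passed the filter through AF alone, is among the 5 and the 6. Without it 4 of 6 were lower, beside 30.7% of the genes that would have passed on either tissue alone. Acan, in scaled FPKM, measured 2103, 2727, 1896, 3129 and 2060 in NP libraries 15, 18, 19, 20 and 22 and 1400, 549, 781, 588 and 322 in AF libraries 25, 27, 28, 29 and 30. All NP values exceeded all AF values, with AF library 25 nearest, and the log2 difference was 1.85 ± 0.34 (limma, adjusted p = 0.00068). Without AF library 25 it was 2.13.

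Comp measured 20.5, 15.6, 11.5, 2.69 and 26.7 scaled FPKM in NP MDL-800 and 661, 780, 939, 839 and 388 in AF MDL-800. Prg4 measured 45.6, 81.1, 23.3, 11.3 and 60.3 in NP MDL-800 and 530, 1600, 1211, 728 and 407 in AF MDL-800. Vcan measured 3.42, 1.83, 11.1, 0.945 and 9.02 in NP MDL-800 and 112, 320, 197, 116 and 64.1 in AF MDL-800. None of these 3 genes overlapped between the tissues, and their log2 differences were -5.68 ± 0.48 for Comp, -4.41 ± 0.54 for Prg4 and -4.83 ± 0.56 for Vcan (limma, adjusted p = 4.64e-06, 4.43e-05 and 3.27e-05). NP library 20 had the lowest Comp, Prg4 and Vcan values of its group and also the lowest AF marker level, 2.95 as a mean of log2 values against 3.91 to 4.41 in the other 4.

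Hapln1 measured 132, 84.7, 147, 151 and 114 scaled FPKM in NP MDL-800 and 190, 151, 196, 136 and 70.7 in AF MDL-800. The groups overlapped, and the log2 difference was -0.18 (95% interval -0.78 to 0.41; limma, adjusted p = 0.576). The ratio of Acan to Hapln1 RNA was 12.9 to 32.2 in NP MDL-800 and 3.64 to 7.36 in AF MDL-800, again without overlap between tissues. Hapln3 measured 0.210, 0.264, 0.486, 0.223 and 0.351 in NP MDL-800 and 0.692, 0.717, 0.258, 0.861 and 0.562 in AF MDL-800 (exact permutation p = 0.0397, adjusted p = 0.119 over 12 tests).

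Among the matrilins, Matn2 measured 12.0, 10.5, 12.9, 13.5 and 12.5 scaled FPKM in NP MDL-800 and 30.9, 51.6, 31.0, 31.9 and 17.7 in AF MDL-800. Here the tissues did not overlap (log2 difference -1.27 ± 0.22, limma, adjusted p = 0.000474). Matn3 measured 0.669, 0.465, 0.810, 0.361 and 0.475 in NP MDL-800 and 12.6, 14.3, 42.4, 24.2 and 6.61 in AF MDL-800. Every AF library was well above every NP library. The log2 difference was -3.51 ± 0.38 (adjusted p = 2.1e-05), or -2 with a pseudocount of 5, and is read as a description, since Matn3 passed the filter through AF alone. Matn4 measured 0.0699, 0.106, 0, 0 and 0.0517 in NP MDL-800 and 1.81, 0.786, 0.644, 0.590 and 1.10 in AF MDL-800. Matn1 was listed at 0 in 4 NP MDL-800 libraries and at 0.0319 in library 20, against 0.0780, 0.177, 0.178, 0.145 and 0.0476 in AF MDL-800. For Matn4 and for Matn1 the exact permutation p was 0.0079 (adjusted p = 0.0317), and Matn1 was too low for this to rest on more than a few fragments in a library.

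The second comparison asked whether MDL-800 changed these genes in either tissue. None of the 7 tested genes was called in NP, where 0.25% of all genes were (41 of 16383 by limma, with 2311, or 14.1%, at an unadjusted p under 0.05). None was called in AF, where 0% of all genes were called and 270, or 1.65%, had an unadjusted p under 0.05. Of the 7 genes, 0 had an unadjusted p under 0.05 in either tissue, and the vehicle and MDL-800 libraries overlapped for all 10 genes in both tissues. Over all genes tested they did not overlap for 4.5% in NP and 0.226% in AF. The intervals leave room for changes of moderate size, as given for each gene below.

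For Acan the means were 2246 and 2383 scaled FPKM in NP vehicle and NP MDL-800, with a log2 difference (MDL-800 minus vehicle) of 0.10 and a 95% interval of -0.37 to 0.57 (limma, adjusted p = 0.885). In AF the means were 617 ± 261 and 728 ± 409 (SD, n = 5), and the log2 difference was 0.16 (-0.70 to 1.03). The Acan interval in NP was narrower than those for Hapln1, Comp, Prg4 and Vcan in that tissue. It was wider than those for Matn2 (-0.64 to 0.13) and Matn3 (-0.44 to 0.13). Hapln1 means were 154 and 126 in NP (log2 difference -0.20, interval -0.82 to 0.42). In AF they were 99.7 ± 33.7 and 149 ± 50.5 (0.54, interval -0.11 to 1.197, adjusted p = 1). Of the AF MDL-800 libraries, 2 lay above the highest vehicle library and 1 lay below the lowest.

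Comp, Prg4 and Vcan had wide intervals in NP, where their libraries spread most. The log2 differences there were 0.45 (-0.84 to 1.75) for Comp, 0.71 (-0.57 to 1.98) for Prg4 and 0.44 (-0.90 to 1.78) for Vcan. In AF they were 0.06 (-0.86 to 0.99), -0.36 (-1.27 to 0.55) and 0.08 (-0.86 to 1.02). Base composition differed between treatment groups in NP. The slope on GC content was taken from log2 values minus the mean of each gene over all 20 libraries, so its sign is relative to that mean. It was negative in all 5 vehicle libraries (-0.302 to -0.00627 for each 10 points of GC) and positive in all 5 MDL-800 libraries (0.0276 to 0.0978). With the GC trend of each library removed, 0 of the 7 genes were called in NP and 0 in AF.

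Matn3 had the largest treatment difference of the 7 genes in size. Its AF mean (scaled FPKM) was 8.22 ± 8.05 for vehicle and 20.0 ± 14.0 for MDL-800, with a log2 difference of 1.46 ± 0.67 (interval -0.02 to 2.94, limma, unadjusted p = 0.052, adjusted p = 1). AF vehicle libraries 8 and 13 lay among the MDL-800 libraries, and libraries 9, 10 and 12 lay below all of them. In NP the difference was -0.16 (-0.44 to 0.13). The test of the difference between tissues gave -1.62 for Matn3 (unadjusted p = 0.0361, adjusted p = 1), -0.74 for Hapln1 (unadjusted p = 0.0999) and 1.07 for Prg4 (unadjusted p = 0.168). No member was called in it, as was no gene at all (0%; 610 genes, or 3.72%, had an unadjusted p under 0.05).

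Bone markers followed Matn3 in part. In AF vehicle their mean log2 level was 6.17 and 5.69 in libraries 8 and 13, against 3.98 to 5.53 in the other 3, and under MDL-800 library 28 was highest in bone markers (6.61) and in Matn3. Library 30 went the other way, with a bone level of 6.48 and the lowest Matn3 of its group, 6.61 scaled FPKM. The summed level of 6 bone markers was 249 to 1151 scaled FPKM in AF vehicle and 841 to 2067 in AF MDL-800, overlapping between treatments, and none of these markers was at 0 in every library. The part of bone tissue in the Matn3 values was not tested. Matn2 differed by -0.25 (-0.64 to 0.13) in NP and -0.22 (-0.89 to 0.44) in AF on the log2 scale. For Hapln3, Matn1 and Matn4 the exact permutation p between treatments was 0.397, 1 and 0.675 in NP and 0.111, 0.651 and 0.881 in AF, before adjustment.

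**Figure D4:**
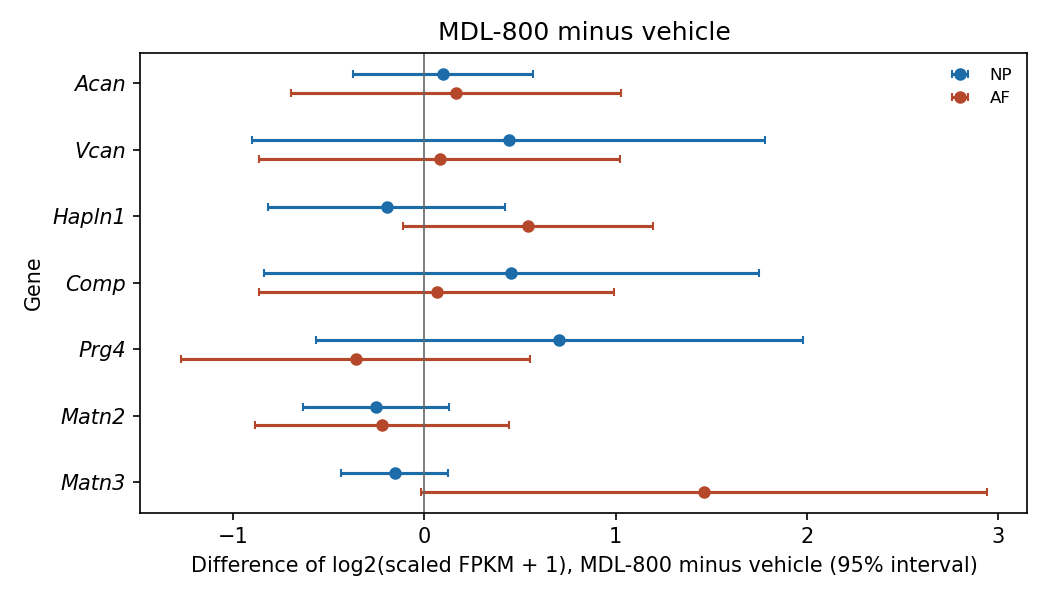
Difference of log2(scaled FPKM + 1) between MDL-800 and vehicle for the 7 genes tested (points, with 95% intervals), in NP (blue) and AF (red). Every interval spans 0, and the highest point is Matn3 in AF at 1.46.

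Related genes were read from lists of 53 genes in all, of which 52 were in the table and 45 passed the filter. The lists covered other lecticans and link proteins, hyaluronan genes, cleavage genes, cartilage collagens, other cartilage glycoproteins, SOX factors and thrombospondins. Of the 45, 11 passed through AF alone, which favours a lower call in NP, so the tissues are compared over the other 34, which would have passed on the libraries of either tissue alone. In vehicle mice 8 of these (23.5%) were higher in NP, 18 (52.9%) were lower and 8 were not called, beside 23.6% higher and 26.9% lower over all 13040 such genes. Under MDL-800 8 (23.5%) were higher and 23 (67.6%) lower, beside 28.0% and 30.7%. Over the lists together the share that was higher in NP was thus near or below that of all such genes. It differed between lists, each of few genes. In vehicle mice it was 66.7% for the 6 cleavage genes, 66.7% for the 3 SOX factors and 28.6% for the 7 hyaluronan genes. For cartilage collagens, other cartilage glycoproteins and thrombospondins it was 0%, and the share lower in NP was 16.7%, 87.5% and 100%. None of the 45 was called in a comparison of treatments.

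Of 12 tested genes of hyaluronan synthesis, binding and breakdown, 5 passed through AF alone (Has1, Has2, Lyve1, Cemip and Layn). Of the other 7, 4 (57.1%) were lower in NP vehicle than in AF vehicle and 2 (Ugdh and Hyal1) were higher. Their median log2 difference was -1.46 against -0.01 over all genes that would have passed on either tissue alone, of which 26.9% were lower and 23.6% higher. Among the 5, the hyaluronan synthase Has1 was at 0.0492 ± 0.0610 scaled FPKM (SD, n = 5) in NP and 1.79 ± 0.45 in AF, and Lyve1, a receptor of lymphatic endothelium and of some macrophages, was at 0.501 ± 0.193 and 29.5 ± 13.3. Cd44, a cell surface receptor of hyaluronan, was at 23.8 ± 4.59 and 93.7 ± 28.8 (log2 difference -1.90 ± 0.22, limma, adjusted p = 5.24e-05). Hmmr, a receptor that also marks dividing cells, differed by -2.35 ± 0.23. Macrophage and endothelial markers were lower in NP as well, and their part in these differences was not tested.

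Of 8 tested genes of aggrecan and versican cleavage, Adamts9 and Adamts15 passed through AF alone. Of the other 6, 4 (66.7%) were higher and 2 (33.3%) lower in NP vehicle. Over all genes that would have passed on either tissue alone, 23.6% were higher and 26.9% lower. The aggrecanase Adamts5 was at 2.21 ± 0.81 scaled FPKM in NP vehicle and 7.96 ± 2.01 in AF vehicle (log2 difference -1.49 ± 0.22, limma, adjusted p = 0.000248). The collagenase Mmp13 differed by -4.60 ± 0.43. Adamts9 was at 0.129 ± 0.0364 in NP and 2.78 ± 0.99 in AF. The versican- and aggrecan-cleaving Adamts1 went the other way, with 23.8 ± 6.10 in NP and 9.28 ± 2.22 in AF (1.26 ± 0.19, adjusted p = 0.000249). The other 3 that were higher in NP were Adamts20, Timp3, an inhibitor of aggrecanases, and Htra1, a serine protease of matrix.

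Of the SOX factors that drive cartilage genes including Acan, Sox9 was at 138 ± 30.8 scaled FPKM in NP vehicle and 53.9 ± 15.3 in AF vehicle (log2 difference 1.36 ± 0.21, limma, adjusted p = 0.000328). Sox6 was also higher in NP (0.79 ± 0.16, adjusted p = 0.00168), and Sox5 was not called (0.19 ± 0.15). Among 7 cartilage collagen partners, Col9a2 passed through AF alone (0.712 ± 0.787 in NP and 20.3 ± 18.1 in AF). Of the other 6, 1 (16.7%) was lower in NP vehicle, Col10a1 (-3.78 ± 0.55), and 5 were not called. Under MDL-800 5 of these 6 (83.3%) were lower in NP and 1 was not called. Over all genes that would have passed on either tissue alone, 26.9% in vehicle and 30.7% under MDL-800 were lower. The fibril collagen Col2a1, with 135 ± 56.2 in NP vehicle and 389 ± 464 in AF vehicle, had a spread in AF vehicle larger than its mean. Of 11 tested other cartilage glycoproteins, 3 passed through AF alone (Chadl, Cilp2 and Mia). Of the other 8, 7 (87.5%) were lower in NP vehicle and 1 was not called, with a median of -4.17, beside the 26.9% lower just given. The 4 with the smallest p were Cytl1 (-4.01 ± 0.30), Cilp (-6.08 ± 0.48), Clec3a (-6.35 ± 0.58) and Chad (-6.19 ± 0.60).

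Variation among libraries of a group was described with Pearson's r on log2 values over the 20 libraries after the mean of each group was subtracted. These values carry no test, since the libraries share tissue dissection and depth. Acan and Hapln1 moved together (r = 0.68, with 0.62 over the 10 NP and 0.77 over the 10 AF libraries). Vcan moved with Prg4 (0.92) and Matn2 (0.91) over the AF libraries but not over the NP libraries (0.28 and 0.05). Comp moved with Matn3 in AF (0.87) and with Vcan over all 20 (0.66), and Hapln1 with Matn2 in NP (0.88).

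Among 10725 other tested genes at a mean of 5 scaled FPKM or more, those most like each member were named by the same measure, up to 3 for each. For Acan they were Ano1 (0.87), Grb10 (0.87) and Lmo7 (0.85), and for Hapln1 Ggcx (0.91), Glb1 (0.87) and Prkcz (0.86). For Vcan they were Pax1 (0.95), Pcsk6 (0.94) and Clec3a (0.92), and for Comp the first 2 were Chad (0.94) and Cilp (0.90). For Prg4 they were Slc29a1 (0.84), Tgfbi (0.83) and Herpud1 (0.82). For Matn2 they were Igfbp7, Acvr1 and Ecm2 (0.91 for each), and for Matn3 Panx3 (0.94), Col9a2 (0.93) and Col27a1 (0.92). Panx3 is a channel protein of hypertrophic cartilage and bone cells, and Col9a2 is a chain of cartilage collagen IX.

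The levels within a tissue were also set against the marker level of the other tissue (13 relations, permutation tests with 100000 resamples, Benjamini-Hochberg adjustment, chosen after the values were seen). Over the 10 NP libraries Comp was higher where AF markers were higher (Pearson's r = 0.86, adjusted p = 0.0332; Spearman's rho = 0.70, adjusted p = 0.127). Without NP MDL-800 library 20 and NP vehicle library 5, which lay farthest from the median and lowest in AF markers, r was 0.50, so the relation rests on those libraries. For Vcan r was 0.73 (permutation adjusted p = 0.0533; rho = 0.72, adjusted p = 0.127) and 0.50 without them. For Prg4 r was 0.37 (permutation adjusted p = 0.432; rho = 0.41, adjusted p = 0.404) and 0.34 without them.

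Over the 10 AF libraries Acan and the NP markers had r = 0.60 (permutation adjusted p = 0.14; rho = 0.48, adjusted p = 0.363), and r was -0.07 without libraries 9 and 25. Vcan had r = -0.78 (permutation adjusted p = 0.0533; rho = -0.72, adjusted p = 0.127) and -0.73 without those libraries. Prg4 had r = -0.74 (permutation adjusted p = 0.0533; rho = -0.62, adjusted p = 0.162) and -0.62 without them. The other 7 relations had adjusted p of 0.103 or more for r. Both treatments are pooled in these values. With group means removed r was 0.88 for Comp in NP, 0.75 for Vcan in NP, 0.60 for Acan in AF, -0.80 for Vcan in AF and -0.73 for Prg4 in AF.

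**Figure D5:**
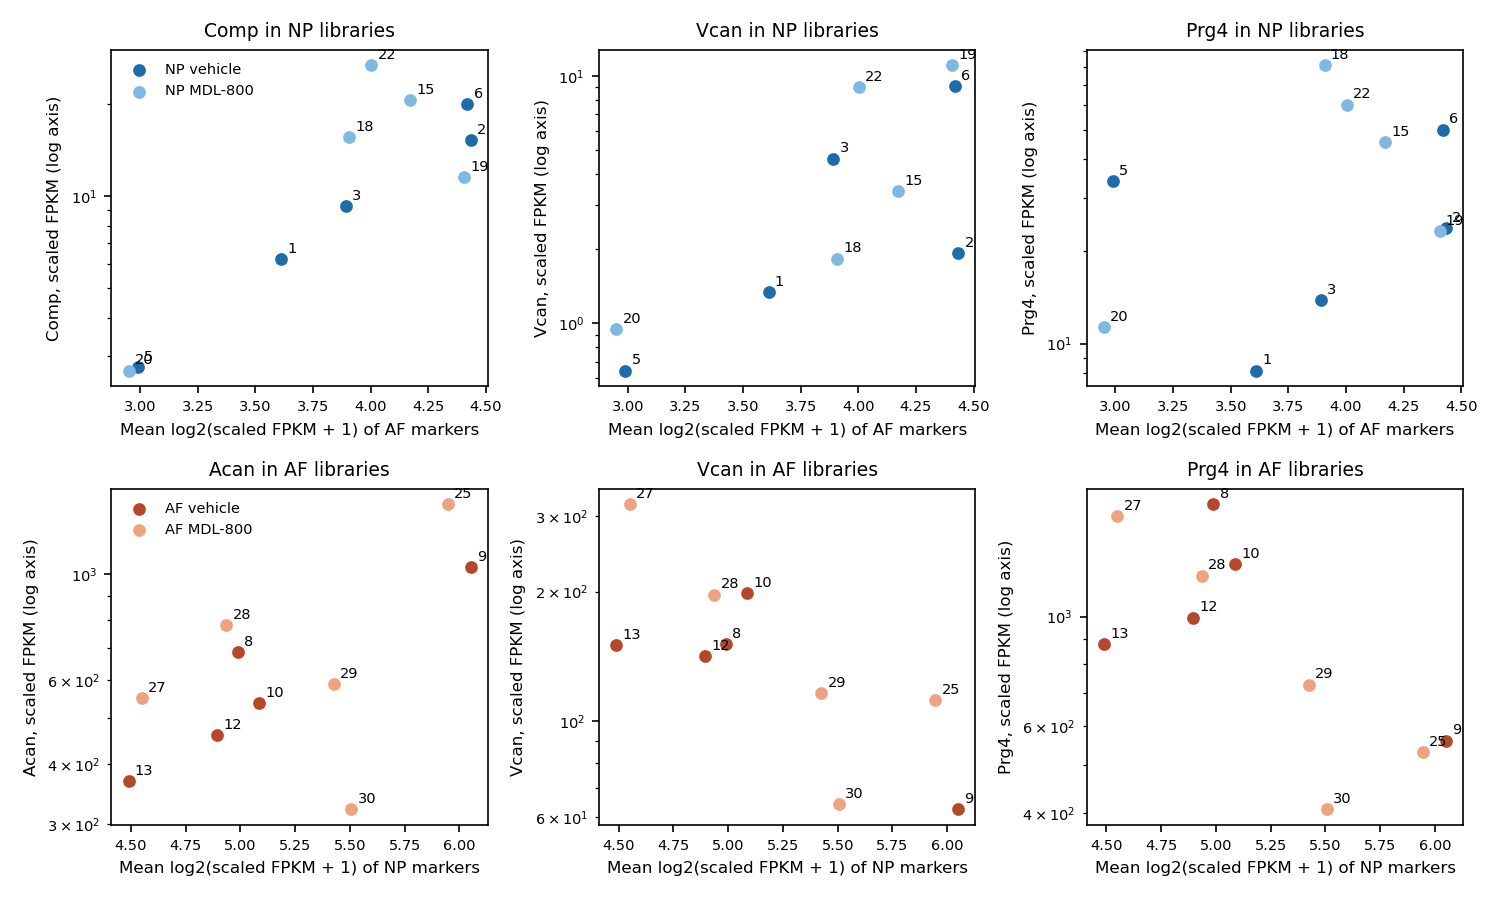
Level of each gene (scaled FPKM, log axis) against the mean log2(scaled FPKM + 1) of the markers of the other tissue, for the 10 NP libraries (upper panels) and the 10 AF libraries (lower panels), with library numbers. NP libraries 5 and 20 are lowest in AF markers and in Comp and Vcan, and AF libraries 9 and 25 are highest in NP markers and in Acan.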

How the data were processed

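Stranded total RNA libraries after ribosomal RNA removal (50 ng of RNA, 14 PCR cycles, per the labels' protocols) were deposited by the authors as a single table of FPKM values for 51789 genes, rounded to 2 decimals. The submitters' processing notes name STAR 2.7.11b and mm10. The program that assigned reads and the annotation are not given in the sources used here. Columns were matched to samples by name. FPKM were divided by median-ratio factors over 11308 genes (0.93 to 1.058) and tested as log2(value + 1) with limma 3.58.1 in R 4.3.3 (trend, two-sided, only the groups compared, all 4 for the difference of effects), over the 16383 genes that reached 1 FPKM in no fewer than 5 of the 20 libraries. The test was also run on simulated data. Genes below that filter had exact permutation tests.

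FPKM carry no counts. Depth (12.9 to 22.0 M, megafragments) was estimated from steps among low values drawn from a pool of 6641 genes. Between 567 and 823 values were read in a library, and 71.3% to 77.3% of them lay on the steps (8.97% to 15.9% by chance). No count test was run. Whether reads were counted by strand is not stated.

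The genes, lists, tests and alternatives were chosen with earlier results of these data known. All 10 members are named. From each list up to 4 tested genes with the smallest p between the vehicle tissues are named, and for likeness the 3 genes with the highest r, of which 1 is not reported here. Ncan, Bcan, Hapln2, Hapln4, Has2, Cemip, Layn, Ugdh, Hyal1, Adamts15, Adamts20, Timp3, Htra1, Chadl, Cilp2 and Mia are named beside small counts, and the markers, Tpr and the promoters shown were picked after values were seen. Marker lists covered NP, AF, synovium or superficial zone, muscle, red blood cells, neutrophils, bone, macrophages, endothelium, nerve and fat. Of 4 nerve markers 3 were lower in NP than in AF in both treatments. Alternatives were other pseudocounts, filters, scalings and variance models, all groups in the fit, each library left out, a GC correction and a block by header number, the last 2 added after the data were seen.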

Additional observations from a re-analysis of the deposited data

Results flagged for a closer look

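Each group of 5 libraries was checked for a single value far from the others (a gap to the nearest value above 0.71 of the range), over 40 groups of values. Chance flags about 1 in 20 groups, and 2 groups were flagged, both for Matn1. In NP MDL-800, library 20 was at 0.0319 scaled FPKM and the other 4 libraries were listed at 0; this value is about that of 1 fragment. In AF vehicle, library 13 was at 0.331, with a gap of 0.714 of the range to the next library. Library 13 was also the highest of its group for Matn3, at 17.3.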

How the results depend on the processing

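No call on a tested gene between the tissues was lost under another pseudocount, filter, scaling, variance model, a GC correction or the omission of any 1 library: 139 of 140 recomputed values kept direction and call in vehicle and 139 of 140 under MDL-800. The replicate numbers in the sample titles are not shared between groups, but numbers in the column headers are (5 in vehicle, 3 under MDL-800), and the sources do not say what they mark. Same-numbered libraries deviated together with r between -0.178 and 0.285 in vehicle and between -0.176 and 0.17 under MDL-800. Only libraries with a shared number entered the fit with a replicate block by these numbers. These were all vehicle libraries and, under MDL-800, NP libraries 19, 20 and 22 and AF libraries 27, 28 and 30. In this fit 2 genes were called higher in NP vehicle, since Hapln1 (0.557) then had an adjusted p of 0.00514 in limma. Under MDL-800, with the other libraries left out, Hapln1 turned to 0.0932 (limma, adjusted p = 0.766). No other call on these genes changed in the block fits. For treatment, none of the 7 tested genes was called under any alternative run, and some small differences changed sign: Acan in NP was -0.00463 with quantile normalization, and with the GC trend removed Comp in AF was -0.0208 and Matn2 was 0.00924 in the test between tissues. Leaving out single libraries gave ranges across 0 for Acan in NP (-0.00648 to 0.248), Hapln1 in NP (-0.357 to 0.0405, positive without NP vehicle library 1), and in AF for Acan (-0.114 to 0.415), Vcan (-0.218 to 0.357) and Comp (-0.17 to 0.366). In the test between tissues they were -0.317 to 0.212 for Acan and -0.224 to 0.184 for Matn2. The cause was not tested. Over all genes the count called for treatment in NP, 41, was 6 without a filter, 74 with a stricter one, 18 on deposited FPKM, 70 with quantile normalization, 18 without the trend, 4 with all groups in the fit, and between 2 and 189 without 1 library. Depth limits Matn1, Matn4 and Hapln3 most.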
